A study of Saccharomyces cerevisiae with 8 samples.

Results

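The genes examined here are 42 genes of Saccharomyces cerevisiae that serve peroxisomes and the breakdown of fatty acids, out of 5449 yeast genes read by single-gene probe sets on Affymetrix arrays. They were chosen by name, and each was found by its gene symbol in the annotation of the array, with 1 probe set per gene. They comprise 14 genes for the enzymes and carriers of fatty acid oxidation, 2 regulators of the response to oleate (PIP2 and OAF1), 24 PEX genes for peroxisome biogenesis, and 2 genes of peroxisome inheritance (INP1 and INP2). Total RNA came from yeast grown overnight to saturation in 10 mL of rich medium (YPD) with 2% glucose at 30 °C, and 5 µg was labelled per array. The double mutant, esa1 sup2-, had 3 arrays. The single mutant, ESA1 sup2-, also had 3 arrays, and the wild type, ESA1 SUP2, had 2. Both mutants carry the sup2 mutation, so the double and the single mutant differ by the labels only in ESA1, which encodes an essential histone acetyltransferase. The study compared strains that contain ESA1 with strains that live through a suppressor bypassing it. Which gene SUP2 is, and what kind of mutation either allele carries, the labels leave unsaid.

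Peroxisomes are the site of fatty acid beta-oxidation in yeast. An oxidase, a multifunctional hydratase and dehydrogenase, and a thiolase shorten an activated fatty acid cycle by cycle, and a catalase removes the hydrogen peroxide made by the oxidase. The genes of these enzymes are repressed by glucose, become active when glucose is used up, and are induced further on oleate by the paired factors Oaf1 and Pip2 together with Adr1. The PEX genes encode peroxins, which insert peroxisomal membrane proteins, import folded matrix proteins through cycling receptors, and set the size and number of the organelles.

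ESA1 checked the labels: its signal was 1.19, 3.34 and 0.267 in the double mutant, 819, 894 and 877 in the single mutant, and 1216 and 1067 in the wild type. The double mutant lay under the background bound of its arrays and was lower than the single mutant by a factor of at least 73.3 (adjusted p = 6.2e-09, limma). Background is bounded here on each array by the 99th percentile of probe sets for genes outside the S. cerevisiae table, which was 8.23 to 12.4 signal units. All 42 genes were above this bound on all 8 arrays, with 51.9 as their lowest signal. The bound is low, since 97.6% to 99.3% of all single-gene yeast probe sets exceeded it, depending on the array. Each strain was run on its own fluidics station, so station and strain cannot be told apart in any comparison. Over the 42 genes, the SD of log2 differences between arrays of 1 strain was 0.168 to 0.269 in the double mutant, the most variable strain, 0.0792 to 0.183 in the single mutant, where replicate 2 stood apart from replicates 1 and 3, and 0.092 in the wild type. With 2 or 3 arrays a strain, precision is limited throughout. No label gives replicates separate cultures, so the p-values cover only the spread among these arrays, which may be technical.

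The double mutant against the single mutant asks which of these genes differed when ESA1 was absent in a sup2- strain. All 14 oxidation genes fell, 13 of them at least 2-fold. Of 22 PEX genes that passed the filter on dim probe sets, 18 fell, 4 of them at least 2-fold. Differences are log2 fold changes of signal + 121, a scale that understates the change of dim genes, and a gene was called at a limma adjusted p under 0.05. In mean signal PEX15 was also lower by at least 2-fold (2.25-fold). Over all 4398 probe sets tested, 35.8% were called lower, 31.8% higher, and 6.68% lower by at least 2-fold. The median log2 fold change was -2.74 over the oxidation genes (-4.10 to -0.97), -0.46 over the 22 PEX genes (-1.24 to -0.08) and -0.02 over all probe sets. Because dim genes can pass the filter through the strain in which they are bright, the PEX genes were also counted without it. All 24 were then tested, and 19 were called lower and 1 higher, against 36.9% lower and 27.7% higher over 5498 probe sets. RNA came from whole cultures, so fewer cells expressing a gene and less RNA per cell cannot be told apart. Arrays of 2 strains without overlap, in either direction, were common over the 4398 probe sets. This held for 70.8% between the mutants, 77.8% for the single mutant against wild type and 81.8% for the double mutant against wild type.

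**Figure D1:**
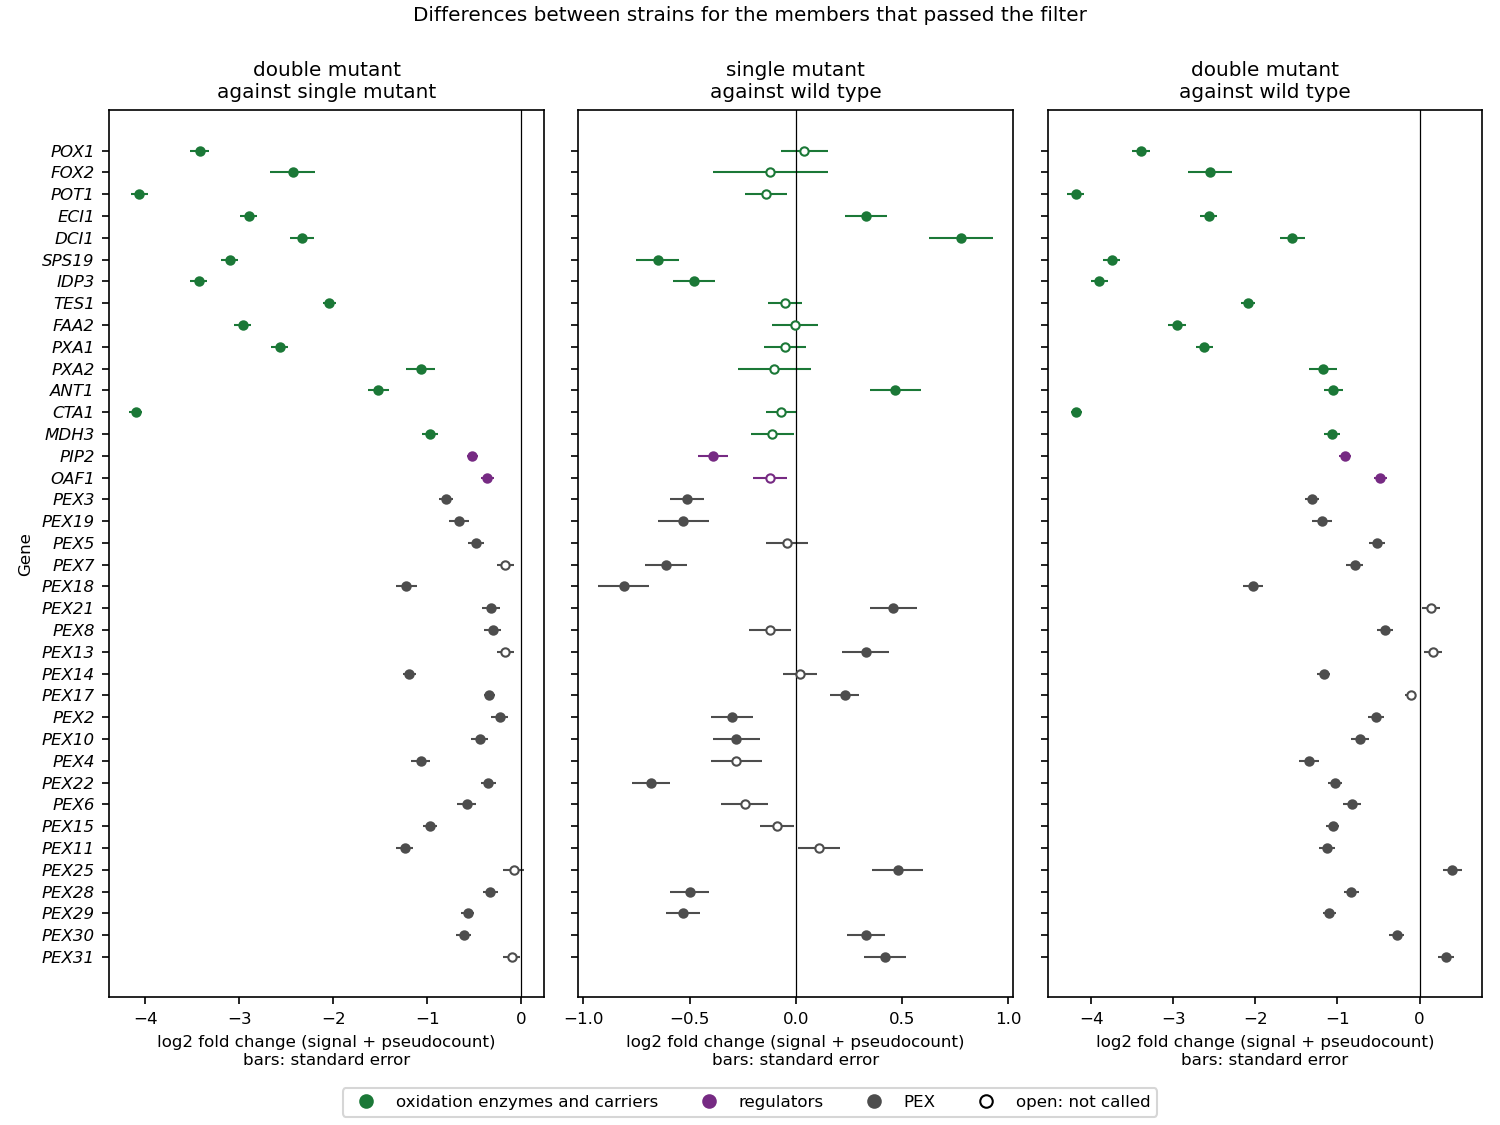
Log2 fold change of signal + 121 (horizontal axes, which differ in range between panels) for the 38 genes that passed the filter, with standard errors as bars, for the double mutant against the single mutant, the single mutant against the wild type, and the double mutant against the wild type. Open circles were not called. The 14 oxidation genes lie at -0.97 or below in the left panel and at -1.05 or below in the right panel, and between -0.65 and 0.78 in the middle panel.

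The 3 core enzymes of beta-oxidation all fell in the double mutant. POT1, the thiolase of the last step, had signals of 53.7, 52.2 and 74.8 in the double mutant, 2999, 2608 and 3088 in the single mutant, and 3044 and 3346 in the wild type. Every double-mutant array was far below every array of the other strains, and the single mutant and the wild type overlapped. Its mean signal was 48.1-fold lower in the double mutant than in the single, and its log2 fold change was -4.06 (SE 0.09, adjusted p = 6e-09, limma). POX1, the acyl-CoA oxidase of the first step, averaged 105 ± 20.8 in the double mutant and 2310 ± 225 in the single mutant (SD, n = 3 each), a log2 fold change of -3.42 (SE 0.10). FOX2, the multifunctional enzyme of the middle steps, had signals of 552, 492 and 1165 in the double mutant, 4026, 4635 and 4073 in the single mutant, and 4451 and 4809 in the wild type. Double-mutant replicate 3 was the highest of its strain, yet below every array of the other strains. The log2 fold change of FOX2 was -2.43 (SE 0.24), and -2.76 without that replicate.

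The auxiliary enzymes, which serve unsaturated fatty acids or release free acids, fell in 5 of 5 cases, with log2 fold changes of -3.43 to -2.04. IDP3, the peroxisomal isocitrate dehydrogenase that supplies NADPH, had signals of 51.9, 53.9 and 82.7 in the double mutant, 1734, 1886 and 1945 in the single mutant, and 2605 and 2643 in the wild type. The 3 strains did not overlap, and its log2 fold change between the mutants was -3.43 (SE 0.09, limma adjusted p = 9.7e-09). SPS19, a dienoyl-CoA reductase, had signals of 84.8, 84.5 and 115 in the double mutant, 1674, 1607 and 1925 in the single mutant, and 2764 and 2804 in the wild type. It too was lowest in the double mutant and highest in the wild type on every array, with a log2 fold change of -3.10 (SE 0.09) between the mutants. The enoyl-CoA isomerase gene ECI1 was at -2.90 (SE 0.09), its paralogue DCI1 at -2.33 (SE 0.13) and the thioesterase gene TES1 at -2.04 (SE 0.07).

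Genes that bring fatty acids and cofactors into the cycle fell as well, over a wider range. FAA2, the peroxisomal acyl-CoA synthetase for medium-chain acids, had signals of 183, 151 and 224 in the double mutant, 2188, 2376 and 2203 in the single mutant, and 2291 and 2228 in the wild type. Its double-mutant arrays stood apart from the other 5 arrays, and the log2 fold change between the mutants was -2.96 (SE 0.09, limma adjusted p = 4.4e-08). PXA1 and PXA2 encode the subunits of 1 transporter that carries long-chain acyl-CoA into the peroxisome, and they fell by different amounts, with log2 fold changes of -2.57 (SE 0.09) and -1.07 (SE 0.15). PXA2 had signals of 274, 280 and 481 in the double mutant, 789, 941 and 797 in the single mutant, and 902 and 920 in the wild type. Double-mutant replicate 3 was the highest of its strain here too, and without it the log2 fold change was -1.27. ANT1, the peroxisomal carrier of adenine nucleotides, had signals of 668, 631 and 647 in the double mutant, 1885, 2517 and 1889 in the single mutant, and 1517 and 1429 in the wild type. The 3 strains did not overlap, the single mutant was highest, and the log2 fold change between the mutants was -1.52 (SE 0.11).

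CTA1, the peroxisomal catalase, showed the largest decrease of the 42 genes on this scale. Its signals were 140, 130 and 128 in the double mutant, 4071, 4411 and 4248 in the single mutant, and 4481 and 4461 in the wild type. The double-mutant arrays were far below the rest, at a log2 fold change of -4.10 against the single mutant (SE 0.07, limma adjusted p = 1.6e-09). Only 6 of the 4398 probe sets had a log2 fold change below that of CTA1, and 7 below that of POT1. MDH3, the peroxisomal malate dehydrogenase of the NADH shuttle, fell least of the oxidation genes. It had signals of 2455, 2564 and 2056 in the double mutant, 4807, 4518 and 4782 in the single mutant, and 4828 and 5326 in the wild type. The log2 fold change between the mutants was -0.97 (SE 0.09, limma adjusted p = 2.2e-05), and the double-mutant arrays did not overlap the others.

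**Figure D2:**
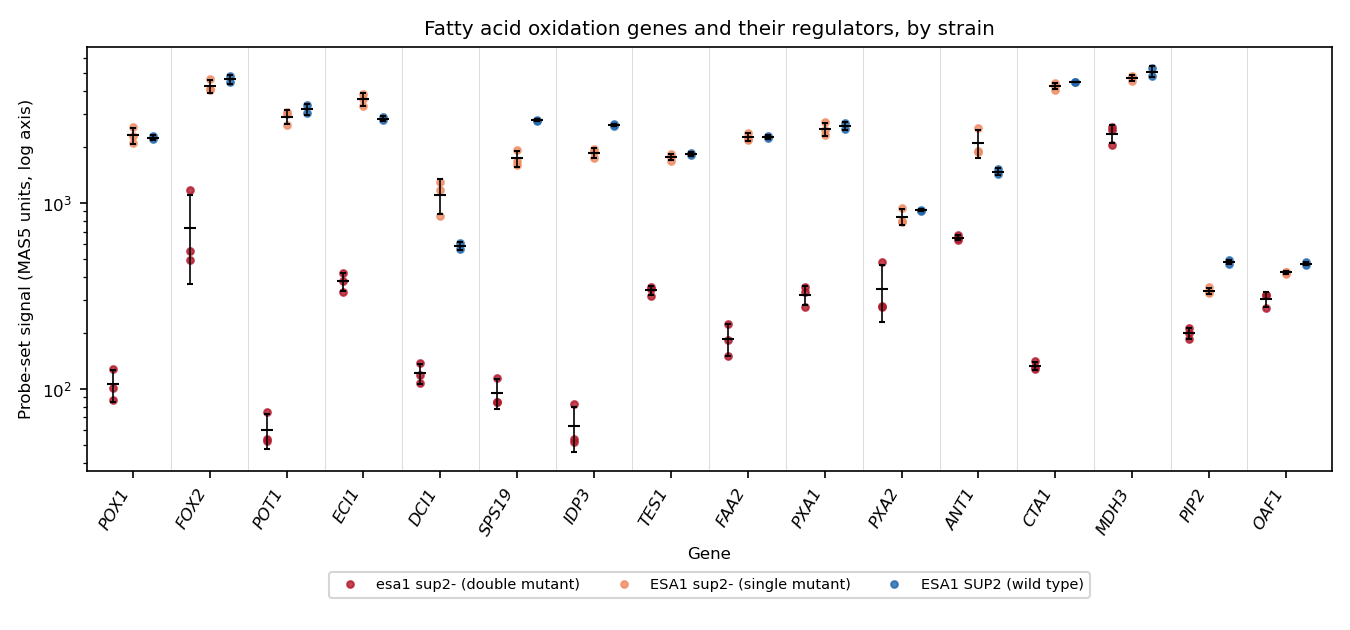
Signals of the 14 oxidation genes and of PIP2 and OAF1 on every array (MAS5 units, log axis), for the double mutant, the single mutant and the wild type from left to right within each gene. Points are arrays and bars give the mean ± SD of each strain (n = 3, 3 and 2). The double-mutant arrays lie below all arrays of the other strains for each of these 16 genes, and FOX2 and PXA2 show a higher array 3 of the double mutant.

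Both regulators fell between the mutants by less than any oxidation gene. PIP2, an oleate-activated transcription factor, had signals of 212, 186 and 199 in the double mutant, 352, 330 and 327 in the single mutant, and 470 and 490 in the wild type. The 3 strains did not overlap and stepped up in that order, with a log2 fold change of -0.52 (SE 0.06, adjusted p = 0.00011, limma) between the mutants. OAF1, its partner, had signals of 320, 319 and 272 in the double mutant, 427, 415 and 425 in the single mutant, and 464 and 478 in the wild type. It was also lowest in the double mutant on every array, at -0.36 (SE 0.07, limma adjusted p = 0.0015). That OAF1 call ended with quantile normalization (log2 fold change -0.16, limma adjusted p = 0.078) and with scaling on the poly-A control probe sets (-0.16, limma adjusted p = 0.44), within 0.0011 to 0.44 over its 21 alternatives. The PIP2 call ended with poly-A control scaling (log2 fold change -0.34, limma adjusted p = 0.063), within 9.9e-05 to 0.063 over its 21 alternatives.

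**Figure D3:**
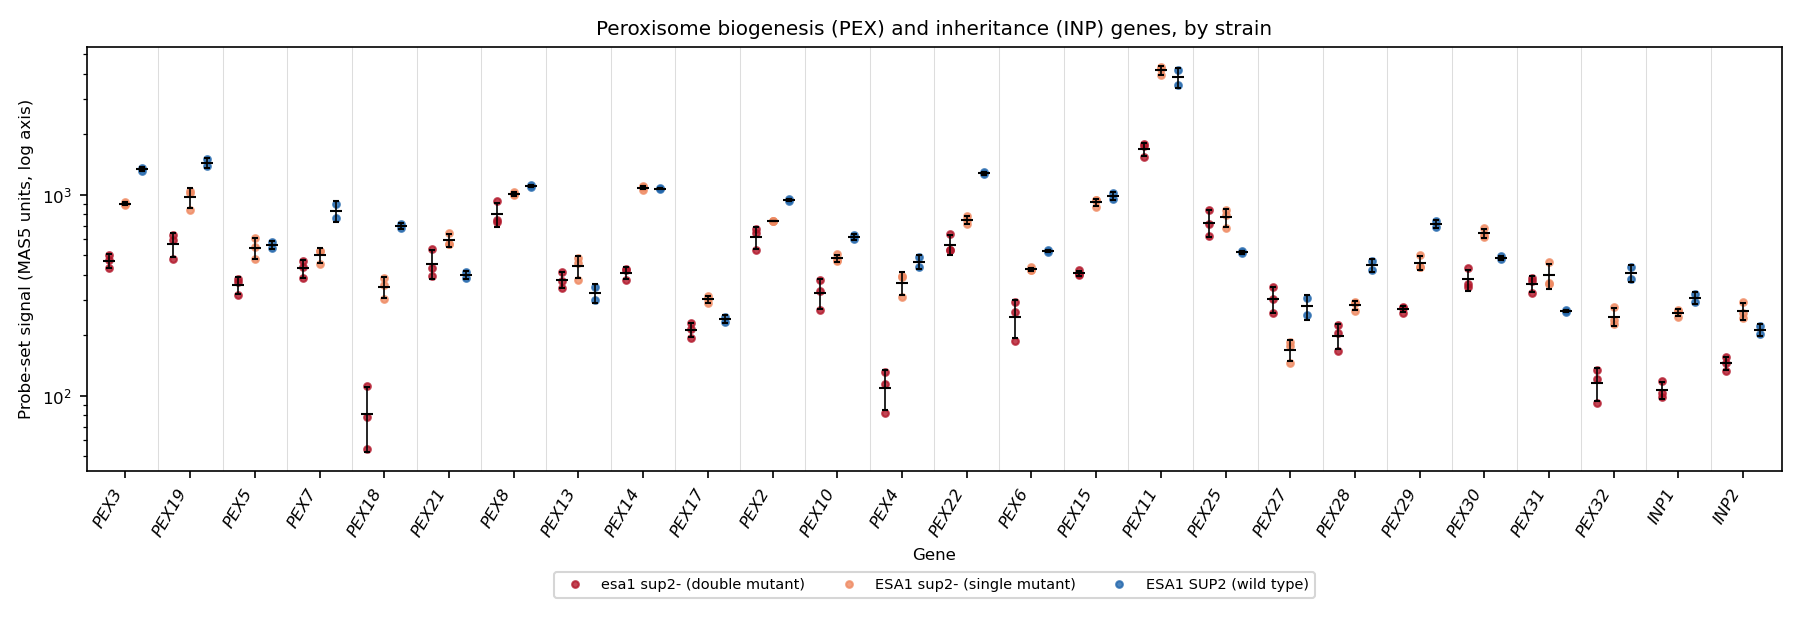
Signals of the 24 PEX genes and of INP1 and INP2 on every array (MAS5 units, log axis), for the double mutant, the single mutant and the wild type from left to right within each gene. Points are arrays and bars give the mean ± SD of each strain (n = 3, 3 and 2). PEX18, PEX4 and PEX32 were lowest in the double mutant and highest in the wild type, while PEX27 was lowest in the single mutant.

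Among the PEX genes, the membrane insertion factors fell in both cases. PEX3, the membrane anchor that receives newly made membrane proteins, had signals of 502, 476 and 430 in the double mutant, 897, 888 and 922 in the single mutant, and 1364 and 1316 in the wild type. The 3 strains did not overlap, and its log2 fold change between the mutants was -0.80 (SE 0.07, limma adjusted p = 2e-05). PEX19, the soluble chaperone and receptor of those proteins, had signals of 477, 598 and 629 in the double mutant, 1039, 843 and 1024 in the single mutant, and 1504 and 1387 in the wild type. Its strains did not overlap either, with a log2 fold change of -0.66 (SE 0.11) between the mutants.

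The import receptors differed from one another. PEX18, the co-receptor that helps Pex7 deliver proteins with an N-terminal signal, had signals of 112, 54.2 and 78.5 in the double mutant, 357, 302 and 386 in the single mutant, and 714 and 685 in the wild type. It was 4.27-fold lower in mean signal in the double mutant than in the single, at a log2 fold change of -1.22 (SE 0.11, adjusted p = 2.2e-05, limma), and the strains did not overlap. PEX21, its paralogue with the same known role, had signals of 538, 394 and 431 in the double mutant, 567, 648 and 570 in the single mutant, and 386 and 411 in the wild type. Here the single mutant was highest on every array, and the double mutant overlapped the wild type. The decrease of PEX21 between the mutants, -0.32 (SE 0.10, limma adjusted p = 0.019), ended without double-mutant replicate 2 (limma adjusted p = 0.050), without single-mutant replicate 2 (limma adjusted p = 0.062) and with quantile, median and poly-A control scaling, within 0.0028 to 0.65 over its 21 alternatives. PEX5, the receptor for the C-terminal signal that most matrix enzymes carry, fell by 0.48 on the log2 scale (SE 0.09, limma adjusted p = 0.0015). PEX7, the receptor for the N-terminal signal, was at -0.17 and was not called (limma adjusted p = 0.13). With hybridization control scaling PEX7 was called, at -0.28 (limma adjusted p = 0.046, within 0.046 to 0.96 over its 21 alternatives).

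In the docking and import machinery, 3 of 4 genes fell. PEX14, the central docking protein, had signals of 421, 377 and 427 in the double mutant, 1096, 1058 and 1100 in the single mutant, and 1075 and 1066 in the wild type. Its double-mutant arrays lay below all others, at a log2 fold change of -1.19 (SE 0.07, adjusted p = 1.6e-06, limma), while the other strains overlapped. PEX13, its docking partner, had signals of 374, 344 and 414 in the double mutant, 458, 379 and 483 in the single mutant, and 348 and 299 in the wild type. The mutants overlapped there, and the difference of -0.17 (SE 0.09) was not called (limma adjusted p = 0.14). Without single-mutant replicate 2 PEX13 was called, at -0.25 (limma adjusted p = 0.038, within 0.038 to 0.98 over its 21 alternatives). PEX17 and PEX8, a docking subunit and the luminal link between import complexes, were at -0.34 (SE 0.06, limma adjusted p = 0.0014) and -0.30 (SE 0.09, limma adjusted p = 0.016). Both calls ended with poly-A control scaling and with quantile normalization, and that of PEX8 also with median centring, within limma adjusted p of 0.0013 to 0.36 over 15 alternatives for PEX17 and 0.00078 to 0.77 over 22 for PEX8.

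All 6 measured genes of receptor ubiquitination and recycling fell. PEX4, the ubiquitin-conjugating enzyme that acts on the receptors, had signals of 115, 82.4 and 132 in the double mutant, 392, 309 and 391 in the single mutant, and 491 and 439 in the wild type. The strains did not overlap, with a log2 fold change of -1.07 (SE 0.10, adjusted p = 3e-05, limma) between the mutants. PEX22, its membrane anchor, was at -0.35 (SE 0.08), and had signals of 529, 638 and 529 in the double mutant, 780, 750 and 719 in the single mutant, and 1261 and 1290 in the wild type. For PEX22 the wild type stood furthest from the other strains. PEX15, the anchor of the receptor-extracting ATPase, was at -0.97 (SE 0.07), PEX6, a subunit of that ATPase, at -0.58 (SE 0.10), and the ubiquitin ligase gene PEX10 at -0.44 (SE 0.09). The call of the ligase gene PEX2, at -0.23 (SE 0.09, limma adjusted p = 0.043), ended under 11 of 22 alternatives, among them leaving out any array of the single mutant or the wild type and leaving out double-mutant replicate 3 (limma adjusted p of 0.012 to 1 over the 22).

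The proliferation factors PEX11, PEX25 and PEX27, which are related in sequence and elongate the peroxisomal membrane, had different values across the strains. PEX11 had signals of 1741, 1778 and 1547 in the double mutant, 4304, 3919 and 4217 in the single mutant, and 3529 and 4149 in the wild type. Its log2 fold change of signal + 121, -1.24 (SE 0.09, limma adjusted p = 4.6e-06), was the lowest among the tested PEX genes, and its single mutant and wild type overlapped. In mean signal it was 2.46-fold lower, less than PEX18 (4.27-fold), PEX4 (3.32-fold) and PEX14 (2.66-fold). PEX25 had signals of 718, 839 and 623 in the double mutant, 838, 684 and 794 in the single mutant, and 524 and 511 in the wild type. Its mutants overlapped, with a difference of -0.08 (SE 0.11, limma adjusted p = 0.53), and both lay above the wild type on every array. PEX27 was below the filter, with signals of 347, 257 and 302 in the double mutant, 177, 184 and 146 in the single mutant, and 305 and 251 in the wild type. The single mutant was lowest on every array, and in the fit without a filter PEX27 rose between the mutants by 0.54 (SE 0.10, limma adjusted p = 0.0014), while PEX11 fell.

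Of the genes that control peroxisome size and number, PEX30, PEX29 and PEX28 fell, at -0.61 (SE 0.08), -0.57 (SE 0.07) and -0.33 (SE 0.08). PEX30, a membrane-shaping protein of the endoplasmic reticulum, had signals of 431, 359 and 347 in the double mutant, 632, 682 and 614 in the single mutant, and 494 and 477 in the wild type. Its single-mutant arrays were the highest and its double-mutant arrays the lowest. PEX31, its paralogue, had signals of 326, 384 and 373 in the double mutant, 366, 464 and 362 in the single mutant, and 261 and 266 in the wild type. The mutants overlapped at -0.10 (SE 0.09, limma adjusted p = 0.35), and both lay above the wild type. PEX32 was below the filter, with signals of 121, 92.6 and 135 in the double mutant, 226, 275 and 239 in the single mutant, and 436 and 380 in the wild type. Its strains did not overlap, and it was at -0.64 (SE 0.09, limma adjusted p = 0.00028) in the fit without a filter.

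The inheritance genes were also below the filter, and both fell between the mutants in the fit without it. INP1, which tethers peroxisomes in the mother cell, had signals of 119, 98.3 and 103 in the double mutant, 268, 263 and 247 in the single mutant, and 321 and 293 in the wild type. Its strains stepped up in that order with no overlap, at -0.74 (SE 0.06, limma adjusted p = 1.8e-05) between the mutants. INP2, which links peroxisomes to the myosin motor that moves them into the bud, had signals of 146, 134 and 156 in the double mutant, 257, 291 and 243 in the single mutant, and 223 and 203 in the wild type. For INP2 the single mutant was highest, and the difference between the mutants was -0.53 (SE 0.07, limma adjusted p = 0.00019).

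The 14 oxidation calls held under all the alternatives run for each gene, and their count was 14 under every setting but 1. With the lowest 50% of probe sets left out DCI1 was not tested, and the other 13 were all called. The PEX count depended on scaling. It was 18 as reported, 13 with quantile normalization (29.7% of all probe sets lower), 14 with median centring (26.7%), 19 with hybridization control scaling (39.7%) and 9 with poly-A control scaling (15.8%). Poly-A control scaling ended the calls of PEX2, PEX5, PEX8, PEX10, PEX17, PEX21, PEX22, PEX28 and PEX29, quantile normalization those of PEX2, PEX8, PEX17, PEX21 and PEX28, and median centring those of PEX2, PEX8, PEX21 and PEX22. The median of all probe sets was shifted by these scalings to 0.04, 0.11, -0.13 and 0.20 log2 units, and the PEX median was -0.29, -0.34, -0.56 and -0.26. PEX11, PEX14, PEX4, PEX18, PEX3, PEX19, PEX6, PEX15 and PEX30 were called lower under every alternative in which they were tested. The arrays of the mutants did not overlap for 34 of the 38 tested genes, all 34 lower, against 37.3% of all probe sets that were lower without overlap.

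The single mutant against the wild type asks which genes differed with the sup2 mutation while ESA1 was present. No large decrease of the oxidation genes was seen. DCI1, ANT1 and ECI1 rose and SPS19 and IDP3 fell, while the 3 core enzymes, TES1, FAA2, PXA1, PXA2, CTA1 and MDH3 were not called. This makes 3 of 14 higher and 2 lower, shares of 21.4% and 14.3% that lie under the 28.5% higher and 22.1% lower of all probe sets. The median over the oxidation genes was -0.06, against 0.01 over all probe sets. This comparison shares its single-mutant arrays with the one above, so their values are not independent.

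The auxiliary enzymes moved in both directions. DCI1 had signals of 1172, 850 and 1298 in the single mutant, against 606 and 568 in the wild type and 119, 137 and 108 in the double mutant. The single mutant was highest on every array, with a log2 fold change against the wild type of 0.78 (SE 0.15, limma adjusted p = 0.0024). ECI1, with 3637, 3306 and 3856 in the single mutant and 2774 and 2898 in the wild type, was at 0.33 (SE 0.10, limma adjusted p = 0.023). The ECI1 call ended under 7 of 22 alternatives, among them without either wild-type array (limma adjusted p of 0.14 and 0.086) and without single-mutant replicate 1 or 3 (0.067 and 0.086), within 0.0069 to 0.15 over the 22. ANT1, whose signals stand above, was at 0.47 (SE 0.12, limma adjusted p = 0.012), and its call ended when wild-type replicate 1 was left out (limma adjusted p = 0.055) or replicate 2 (0.090), within 0.0086 to 0.090 over 22 alternatives. SPS19 was at -0.65 (SE 0.10, limma adjusted p = 0.00089) and IDP3 at -0.48 (SE 0.10, limma adjusted p = 0.0034). Neither gene overlapped between the strains, which was also so for 77.8% of all probe sets in either direction. The call of IDP3 ended with poly-A control scaling (log2 fold change -0.41, limma adjusted p = 0.12, within 0.00067 to 0.12 over 22 alternatives).

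For the oxidation genes that were not called, POT1 differed by -0.14 (SE 0.10), POX1 by 0.04 (SE 0.11), FAA2 by -0.0029 (SE 0.11), CTA1 by -0.07 (SE 0.07) and MDH3 by -0.11 (SE 0.10). A value that missed the threshold does not show equal levels, and FOX2, at -0.12, had an SE of 0.27. Of the regulators, PIP2 fell by 0.39 on the log2 scale (SE 0.07, limma adjusted p = 0.0017), a call that ended with poly-A control scaling (log2 fold change -0.33, limma adjusted p = 0.15, within 0.00052 to 0.15 over 21 alternatives). OAF1 was at -0.12 and was not called (limma adjusted p = 0.20), although its single-mutant arrays lay below both wild-type arrays.

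The PEX genes split in this comparison, with 9 of 22 lower and 6 higher and every value between -0.81 and 0.48. The lower share of 40.9% stood beside 22.1% of all probe sets, and the higher share of 27.3% beside 28.5%. Lower were both insertion factors, PEX19 (-0.53, SE 0.12) and PEX3 (-0.51, SE 0.08), the receptor genes PEX18 (-0.81, SE 0.12) and PEX7 (-0.61, SE 0.10), and the recycling genes PEX22 (-0.68, SE 0.09), PEX2 (-0.30, SE 0.10, limma adjusted p = 0.028) and PEX10 (-0.28, SE 0.11, limma adjusted p = 0.049). The call of PEX2 ended under 8 of 22 alternatives (limma adjusted p of 0.0020 to 0.42) and that of PEX10 under 12 of 21 (0.0048 to 0.41), both of them without any single array of the single mutant or the wild type and with the replicate block. PEX29 (-0.53, SE 0.08) and PEX28 (-0.50, SE 0.09), which act in size control, were lower too. PEX7 had signals of 528, 525 and 451 in the single mutant, against 901 and 763 in the wild type and 437, 470 and 384 in the double mutant, so both mutants lay below the wild type. PEX29 had signals of 438, 501 and 437 in the single mutant, against 737 and 692 in the wild type and 273, 259 and 276 in the double mutant, with no overlap between any strains.

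Higher in the single mutant were PEX25 (0.48, SE 0.12), PEX21 (0.46, SE 0.11), PEX31 (0.42, SE 0.10), PEX13 (0.33, SE 0.11), PEX30 (0.33, SE 0.09) and PEX17 (0.23, SE 0.07). Related genes thus carried opposite signs. The co-receptor gene PEX18 was lower and its paralogue PEX21 higher, and PEX28 and PEX29 were lower while PEX30 and PEX31 were higher. In the fit without a filter PEX32 was lower (-0.52, SE 0.10, limma adjusted p = 0.0025), as was PEX27 (-0.46, SE 0.11, limma adjusted p = 0.0083) beside the higher PEX25. INP1 was at -0.17 (limma adjusted p = 0.066) and INP2 at 0.20 (limma adjusted p = 0.056), neither called.

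These PEX calls rested on 3 single-mutant and 2 wild-type arrays. Without wild-type replicate 1 none of the 6 higher genes was called, with log2 fold changes of 0.20 to 0.49 and limma adjusted p of 0.053 to 0.16, and 5 genes were called lower. Without wild-type replicate 2, only PEX21 and PEX31 of the 6 were called higher, and over all probe sets the calls numbered 1436 and 1406 without these arrays, against 2227 with both. The calls of PEX7, PEX18 and PEX22 held under all alternatives in which they were tested. With poly-A control scaling 3 PEX genes were lower and 3 higher, against 7.57% and 19.9% of all probe sets, and the calls of PEX3, PEX19, PEX28, PEX29, PEX2, PEX10, PEX13, PEX17 and PEX30 ended.

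The double mutant against the wild type shares arrays with both comparisons above and gives the sum of their differences. All 14 oxidation genes fell at least 2-fold, with a median of -2.60 (-4.19 to -1.05), against 36.6% of all probe sets lower, 11.5% lower by at least 2-fold and a median of 0.01. POT1 was 53.0-fold lower in mean signal (log2 fold change -4.19, SE 0.10, limma adjusted p = 1.3e-08), CTA1 33.6-fold (-4.18, SE 0.07), IDP3 41.8-fold (-3.90, SE 0.10) and SPS19 29.4-fold (-3.75, SE 0.10). DCI1 (-1.55, SE 0.15) and ANT1 (-1.05, SE 0.12) were closer to the wild type than to the single mutant, from which they differed by -2.33 and -1.52. PIP2 was at -0.91 (SE 0.07) and OAF1 at -0.48 (SE 0.08), and the OAF1 call ended with poly-A control scaling (log2 fold change -0.22, limma adjusted p = 0.28, within 0.00031 to 0.28 over 21 alternatives).

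Of the 22 PEX genes, 17 fell against the wild type, 9 of them at least 2-fold, and 2 rose. Over all probe sets, 36.6% were lower and 37.9% higher. The 9 were PEX18 (-2.03, SE 0.12), PEX4 (-1.35, SE 0.12), PEX3 (-1.31, SE 0.08), PEX19 (-1.19, SE 0.12), PEX14 (-1.17, SE 0.08), PEX11 (-1.13, SE 0.10), PEX29 (-1.10, SE 0.08), PEX15 (-1.06, SE 0.08) and PEX22 (-1.03, SE 0.09). In mean signal PEX18 was 8.57-fold lower, and PEX28 (2.24-fold) and PEX6 (2.12-fold) were also lower by at least 2-fold. PEX25 (0.40, SE 0.12) and PEX31 (0.32, SE 0.10) were the 2 that rose, and neither was called when wild-type replicate 1 was left out (limma adjusted p of 0.057 and 0.082) or replicate 2 (0.072 and 0.067), within 0.0022 to 0.082 over their alternatives. The decrease of PEX30, -0.28 (SE 0.09, limma adjusted p = 0.019), ended under 6 of 21 alternatives, without either wild-type array among them, with limma adjusted p of 0.0040 to 0.94 over the 21. With poly-A control scaling 13 PEX genes were lower and 3 higher, against 18.7% and 43.8% of all probe sets. That scaling ended the calls of PEX2, PEX5, PEX8 and PEX30. PEX21 (0.14), PEX13 (0.16) and PEX17 (-0.11) were not called, with limma adjusted p of 0.28, 0.18 and 0.18. In the fit without a filter PEX32 was at -1.16, INP1 at -0.91 and INP2 at -0.33, all called, and PEX27 at 0.08, not called (limma adjusted p = 0.52).

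**Figure D4:**
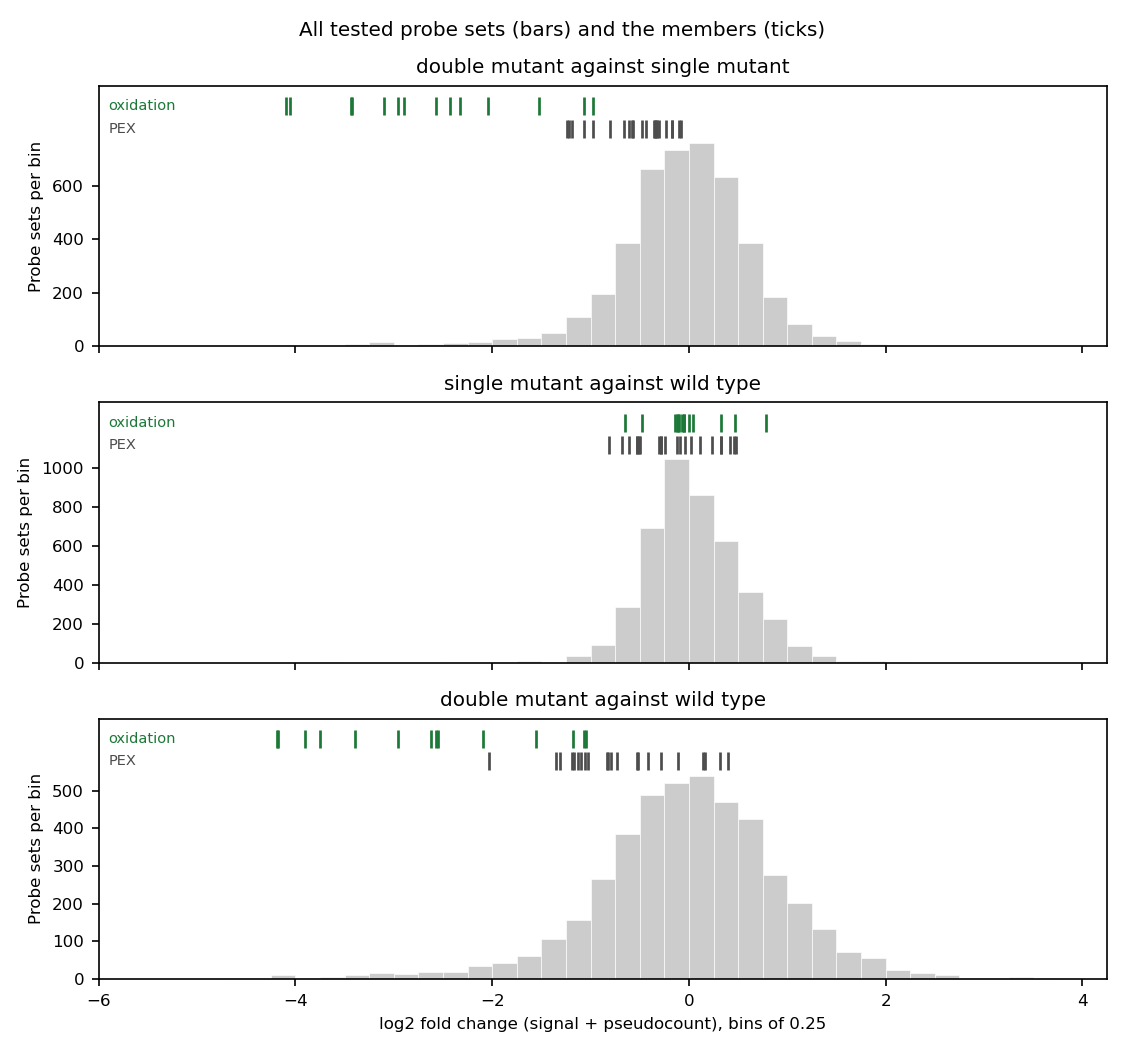
Log2 fold changes of all 4398 tested probe sets (grey bars, number per bin) and of the 14 oxidation genes and 22 PEX genes (ticks above) for the double mutant against the single mutant, the single mutant against the wild type, and the double mutant against the wild type. The oxidation ticks lie in the lower tail in the top and bottom panels (medians -2.74 and -2.60) and around 0 in the middle panel (median -0.06), while the PEX medians are -0.46, -0.18 and -0.80.

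Set beside the PEX genes, the oxidation genes showed the larger differences in both comparisons with the double mutant. Against the single mutant, 12 of 14 oxidation genes had a lower log2 fold change than PEX11, the lowest of the PEX genes, and only PXA2 and MDH3 did not. By ratio of mean signals, which carries no added constant, 11 of the 14 had a larger decrease than the 4.27-fold of PEX18. Against the wild type, 10 of 14 were lower than PEX18 by log2 fold change, and 6 of 14 exceeded its 8.57-fold decrease in mean signal. For the single mutant against wild type the order did not hold, since no oxidation gene was lower than PEX18 at -0.81. These counts describe the values and were not tested. Within the oxidation genes the mean signal was 1.99-fold to 48.1-fold lower in the double mutant than in the single, with MDH3 at the small end and POT1 at the large end.

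Other genes of the pathway, 38 of which were found on the array and 36 of which passed the filter, were lower in 19 cases and higher in 6 in the double against the single mutant (median -0.32), shares of 52.8% and 16.7%, against 35.8% and 31.8% of all probe sets. All 4 genes of the carnitine shuttle, which carries the acetyl groups made by oxidation to the mitochondria, fell, with YAT2 at -3.98 (SE 0.07), CRC1 at -3.22 (SE 0.09), YAT1 at -3.16 (SE 0.09) and CAT2 at -3.01 (SE 0.15). Of 13 genes tested for other peroxisomal matrix proteins, 7 were lower and 3 higher (53.8% and 23.1%), with a median of -0.34 (-4.15 to 0.55). The lowest of them was MLS1, which makes malate in the glyoxylate cycle, at -4.15 (SE 0.10). Of 4 other genes of fatty acid uptake and activation, 1 fell and 2 rose (median 0.14), and none of the 4 reached 2-fold. Against the wild type, 4 of 4 carnitine shuttle genes were lower in the double mutant (median -3.27), beside 36.6% of all probe sets. In the single mutant 1 of these 4 was lower and 1 higher (median -0.02), near the 22.1% and 28.5% of all probe sets.

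Apart from PIP2 and OAF1, 8 regulators of genes for oleate and other non-sugar carbon sources were tested. In the double against the single mutant 3 were lower, 1 higher and 4 not called (median -0.17, -1.89 to 0.81). The lower share of 37.5% was near the 35.8% of all probe sets, and the higher share of 12.5% stood beside 31.8%. The higher gene was MIG1, at 0.81 (SE 0.15, limma adjusted p = 0.0012), named after its values were seen. CAT8, an activator of gluconeogenic genes, had signals of 107, 79.1 and 96.3 in the double mutant, 688, 729 and 617 in the single mutant, and 1668 and 1621 in the wild type. Its strains did not overlap, with log2 fold changes of -1.89 (SE 0.08) between the mutants and -1.15 (SE 0.09) for the single mutant against wild type. ADR1, an activator of peroxisomal and oxidation genes, was named after its values were seen. It had signals of 579, 390 and 410 in the double mutant, 1023, 1279 and 946 in the single mutant, and 1676 and 1863 in the wild type, again with no overlap. Its log2 fold change was -1.06 (SE 0.14, adjusted p = 2e-04, limma) between the mutants and -0.66 (SE 0.16, limma adjusted p = 0.0080) for the single mutant against wild type. UME6, a repressor subunit that recruits a histone deacetylase, was at 1.06 (SE 0.11) for the single mutant against wild type.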

How the data were processed

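The authors deposited 1 table of probe-set signals (intensity values on a linear scale), which per the submitters' processing notes came from GCOS and its MAS5 algorithm (versions not given in the sources used here). Trimmed of its lowest and highest 2%, the mean of each array was 499.8, so the deposited intensity values had been scaled. Instrument records served for the fluidics station alone. Of 10928 probe sets, 5498 read 1 S. cerevisiae gene, 1746 read genes outside that table, 1 was listed with several genes and 166 were controls. The array's build is not named, so no coordinates or sequences are given.

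Signals were taken as log2(signal + 121), 121 being the rounded 10th percentile (120.909), without another normalization, and those in the dimmest 20% by mean were dropped (4398 probe sets, 4372 genes). Limma 3.58.1 in R 4.3.3 (lmFit, eBayes with an intensity trend) fitted all 8 arrays at once, with Benjamini-Hochberg adjusted p-values over all probe sets and calls under 0.05. The steps were tested on simulated arrays. Where a strain was below background, a fold is a bound against the bound of each array. Figures used matplotlib 3.10.9.

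The 42 genes and all lists, tests and alternatives were chosen with earlier results of these data known. All 42 genes may be named. Signals on every array are given for the largest change of each role in each comparison, for calls against a role's direction and for paralogues chosen after their values were seen. Of other genes, ESA1 and up to 5 listed neighbours per comparison with a called change of at least 2-fold were eligible, largest first. MIG1 and ADR1, outside that rule, were named after their values were seen, MIG1 as the listed regulator called higher between the mutants. Replicate numbers were not used to pair arrays in the main fit. The 22 alternatives were 3 other pseudocounts (1, 16 and 500), 4 scalings, 2 filters, 2 variance models, a fit of the 2 groups alone, the replicate block, the removal of shared probe sets and each array left out. The poly-A and hybridization scalings used 36 and 27 control probe sets, although no label mentions added control RNA.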

Additional observations from a re-analysis of the deposited data

How the results depend on the processing

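For the 42 genes, 114 values of 38 genes were recomputed under 22 alternatives (2421 values). Of these, 2276 kept direction and side of the threshold, 99 lost the call, 13 gained one and 33 changed sign, none of the 33 called either way. Of the 114 values, 64 held throughout, among them all oxidation values in both comparisons with the double mutant. The cause of a change was not tested. Poly-A control scaling called 9 PEX genes lower in the double against the single mutant. For the single mutant against wild type it called 1207 probe sets, 1 oxidation gene lower and 2 higher, and 3 PEX genes in each direction. Without a filter, 1 PEX gene (PEX27) was higher in the double against the single mutant. With the lowest 50% left out, which tests fewer probe sets, calls were 1930, 1377 and 2092 in the double against the single mutant, the single mutant against the wild type and the double mutant against the wild type. These were 70.2%, 50.1% and 76.1% of the probe sets then tested, both directions together. Only 9 PEX genes were then tested. Of these 9, 8, 4 and 8 were lower, and 1 was higher in each comparison with the wild type. Leaving out 1 array gave 2586 to 2986, 1406 to 2516 and 2818 to 3334 calls, and 15 to 18, 5 to 11 and 14 to 17 PEX genes lower. PEX genes higher ran from 0 to 1, 0 to 6 and 0 to 2, where the 1 is PEX27 passing the filter without any one single-mutant array. Oxidation genes higher in the single mutant ran from 1 to 3. Higher calls made up 47.0%, 56.3% and 50.9% of calls as reported, 70.1%, 72.4% and 70.1% with poly-A control scaling, 37.6%, 70.5% and 49.8% with hybridization control scaling, and 60.1% in the double against the single mutant with median centring. The median of all probe sets moved to 0.30 in the double mutant against the wild type with poly-A control scaling.

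Sign changes were of small values. In the double against the single mutant, poly-A control scaling gave PEX13 0.04, PEX25 0.15, PEX31 0.10 and PEX7 0.04, quantile normalization PEX13 0.0032 and PEX31 0.09, and median centring PEX25 0.06 and PEX31 0.02. PEX17 in the double mutant against the wild type was 0.10 with poly-A control scaling and 0.02 with quantile normalization. For the single mutant against wild type, hybridization control scaling gave CTA1 0.02, FAA2 0.09, PEX5 0.04, PXA1 0.04 and TES1 0.04. There poly-A control scaling gave FAA2 0.06, PEX5 0.02, PXA1 0.02 and TES1 0.02, quantile normalization FAA2 0.05, and median centring PEX14 -0.04 and POX1 -0.02. With 1 array left out the ranges were -0.17 to 0.01 for PEX25 between the mutants and, for the single mutant against wild type, -0.03 to 0.10 for POX1, -0.04 to 0.02 for FAA2, -0.11 to 0.0029 for PXA1, -0.11 to 0.04 for PEX5 and -0.0018 to 0.22 for PEX11.

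For same-numbered arrays, correlations of their deviations from the strain means were -0.09 to 0.14. With 2 or 3 arrays a strain these deviations are tied to one another, so they cannot show whether arrays were paired. With the replicate block, 2894, 2033 and 3196 probe sets were called. Oxidation genes were lower in 14, 2 and 14 cases and higher in 2 in the single mutant, and PEX genes were lower in 17, 8 and 16 cases and higher in 0, 5 and 2. PEX14 for the single mutant against wild type was -0.00085 with the block.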
